A study of Mus musculus with 9 samples.

Results

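The genes described here are 8 interferon-inducible GTPases of the mouse, out of 53465 genes in the count table. They comprise 3 guanylate-binding proteins (Gbp2, Gbp3 and Gbp7), 4 immunity-related GTPases (Irgm1, Irgm2, Igtp and Iigp1) and 1 very large inducible GTPase (Gvin1). They were chosen by a measured value in these same libraries, the large fall of Gvin1 between 24 h and 72 h of treatment, and the other 7 were added as genes of related function. The change from 24 h to 72 h is therefore given as a description without a test. The comparisons of each time with the control share libraries with it, so they are not independent of the choice.

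RNA was sequenced from mouse adult fibroblasts (MAFs) in 3 groups of 3 libraries each. The control group carries only the treatment label Control, which does not say whether the cells were untreated or given a vehicle. The other groups were exposed to DPI for 24 h or for 72 h. The title of the series speaks of targeting a flavin cofactor, so DPI was read as diphenyleneiodonium, which inhibits flavoenzymes. The labels give no dose, no collection time for the controls, and no strain, age or number of animals behind the cells. Time in culture and DPI therefore cannot be told apart. Nor do the labels tie the 3 libraries of a group to separate cultures, so the p-values below may measure technical spread only.

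Guanylate-binding proteins (GBPs) and immunity-related GTPases (IRGs) belong to the strongest transcriptional targets of interferons in mouse cells. Both families bind and hydrolyse GTP and gather on the membrane of vacuoles that hold bacteria or parasites, where they help to break the vacuole open. Among the IRGs, Irgm1, Irgm2 and Igtp (also called Irgm3) are regulators that sit on the membranes of the cell's own organelles, and Iigp1 (also called Irga6) is an effector that they keep inactive until a pathogen vacuole forms. Gvin1 codes for a far larger GTPase of the same interferon response, about which less is known. Transcription of such genes is known to be driven through short promoter elements, among them the interferon-stimulated response element (ISRE), which IRF9 binds in a complex with other factors, and the gamma-activated site (GAS).

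The promoters are shown because such elements can be read in them. The members were chosen as interferon-inducible genes, so a high share of matches among them says nothing about their change after DPI. Whether the elements had a part in that change was not tested. A window of 300 bases, from 250 before to 50 after each annotated start, was searched on both strands for the ISRE core GAAANNGAAA and for the GAS core TTCNNNGAA. The sequences are from RefSeq, build GRCm38.p6. Of the 8 members, 6 had an entry, with 7 start sites between them, since Gbp3 has a second start. The entries did not include Gvin1 and Iigp1. All 6 members had the ISRE core in at least 1 window, and 6 of the 7 windows held it, against 3.44% of the 32851 promoter windows of the table. The window without a match belonged to the second start of Gbp3. The GAS core was in 3 of the 7 windows (Gbp7, Irgm2 and Igtp), against 8.3% of all windows, and all 3 of these also held the ISRE core, a pairing found in 0.454% of all windows. The 2 ISRE matches of Gbp3 overlapped each other, as did the 2 of Irgm1. A match describes the letters only and does not show that a factor was bound. In the windows below the capitals mark the matches on either strand, and each is written 5′ to 3′ along the strand of its gene.
Gbp2, chr3:142620594-142620623, plus strand: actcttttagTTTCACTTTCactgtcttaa
Gbp3, chr3:142559992-142560021, plus strand: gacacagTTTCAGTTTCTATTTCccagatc
Gbp7, chr3:142530216-142530335, plus strand: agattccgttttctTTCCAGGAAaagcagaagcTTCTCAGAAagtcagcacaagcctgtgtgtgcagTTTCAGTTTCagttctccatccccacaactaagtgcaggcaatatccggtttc
Irgm1, chr11:48871428-48871457, minus strand: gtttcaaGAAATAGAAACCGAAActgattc
Irgm2, chr11:58214857-58214976, plus strand: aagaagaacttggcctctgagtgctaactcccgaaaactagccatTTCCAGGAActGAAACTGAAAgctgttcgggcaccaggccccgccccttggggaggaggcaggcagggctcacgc
Igtp, chr11:58199436-58199555, plus strand: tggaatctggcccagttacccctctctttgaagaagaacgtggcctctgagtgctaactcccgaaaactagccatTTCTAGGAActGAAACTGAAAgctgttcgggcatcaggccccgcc

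The promoters of Igtp and Irgm2 shared a stretch of nearly the same sequence. Their ISRE matches were placed on each other, and the longest ungapped stretch with at most 3 mismatches was sought. It was 142 bases long, from −92 to 50 around the start of Igtp and from −122 to 20 around that of Irgm2. The 3 differences in it are thus the limit of the search, and likeness outside the stretch is not described. The stretch ends at 50, the last base of the window of Igtp, so its length was limited there as well. The ISRE match GAAACTGAAA was identical in both, and the GAS match read TTCTAGGAA in Igtp and TTCCAGGAA in Irgm2. The same 10 letters of the ISRE match, on the other strand, stood in the windows of Gbp3 and Gbp7.

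Total counts per library ranged from 15292736 to 17923656, and 14088 genes passed the filter on low counts, all 8 members among them. Iigp1 passed it only through the control libraries, so that its change was bound to be a fall. Control library 2 stood apart from controls 1 and 3. On the second principal component it scored 44.2, where the others scored 14.1 and 18.0, and genes of ribosomal proteins took 5.01% of its counts, against 3.72% and 3.76%. Of 10 fibroblast markers, 7 passed the filter. All 10 together summed to 5230 to 5420 counts per 1000000 counts of the library (CPM) in the controls, 9240 to 9660 at 24 h and 8490 to 9970 at 72 h. All 7 that passed rose at 24 h and 3 rose at 72 h, while Thy1, Lum and Fap were under the filter. Of 10 macrophage and leukocyte markers 3 were at 0 in every library, and their sum was 6.46 to 9.54 CPM in the controls, 7.78 to 9.56 at 24 h and 5.56 to 7.11 at 72 h. Of the 2 tested, Cd68 was lower at 72 h (log2 change −0.84, edgeR adjusted p = 0.0375, and 0.0675 without control 2). The 6 T and NK cell markers summed to at most 0.183 CPM in any library. Endothelial markers summed to 1.69 to 2.24 CPM in the controls, 3.05 to 4.04 at 24 h and 1.16 to 1.67 at 72 h, and Kdr, the 1 tested, was higher at 24 h (0.98, adjusted p = 0.0338, and 0.0573 without control 2). Epithelial markers summed to 1.38 to 2.17, 1.35 to 1.58 and 6.44 to 6.67 CPM in the same order. Of the 2 tested, Krt14 was lower at 24 h (−3.37, adjusted p = 0.0141) and Krt8 higher at 72 h (1.86, adjusted p = 0.0017). Skeletal muscle markers summed to at most 1.45 CPM and adipocyte markers to at most 0.914 CPM in any library. In bulk RNA, fewer cells of a type and less RNA per cell cannot be told apart, and the part of these shifts in the results below was not tested.

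After 24 h of DPI, 7 of the 8 GTPases were lower than in the controls and 1, Gvin1, was higher. After 72 h all 8 were lower. For comparison, 12.3% of all genes tested were lower at 24 h and 12.4% were higher, and 3.83% were lower at 72 h and 4.73% higher. These calls are from edgeR's quasi-likelihood test with Benjamini-Hochberg adjustment over all genes, at a threshold of 0.05. The median log2 change of the 8 genes was −0.99 at 24 h and −2.35 at 72 h, against −0.00556 and −0.00501 over all genes tested. Without Iigp1, which passed the filter only through its control level, 6 of 7 were lower at 24 h and 7 of 7 at 72 h, with medians of −0.97 and −2.03. With control library 2 left out, the counts were again 7 lower and 1 higher at 24 h and 8 lower at 72 h. Both comparisons use the same 3 controls. With Gvin1, on which the set was chosen, set aside, the other 7 were lower at both times. In the plot of CPM by library, the groups of each gene stand apart except for the low counts of Iigp1.

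**Figure D1:**
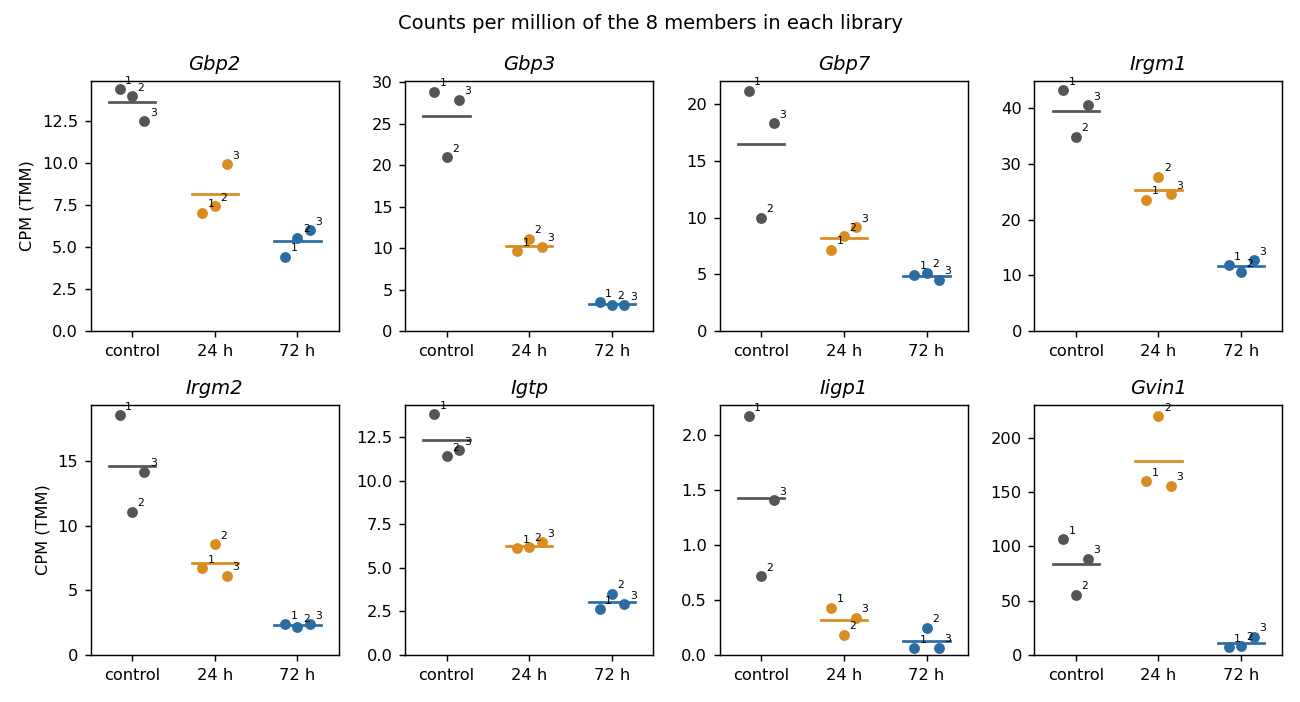
CPM (TMM-normalized, linear axes that start at 0) of the 8 genes in each library, with library numbers beside the points and a line at the mean of each group of 3. For Gbp2, Gbp3, Gbp7, Irgm1, Irgm2 and Igtp the 3 groups step down without overlap, while Gvin1 is highest at 24 h (156 to 220 CPM) and lowest at 72 h (7.23 to 16.8 CPM).

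The GBPs lie in 1 region of chromosome 3 and all 3 fell at both times. Gbp2 (ENSMUSG00000028270, chr3:142620602-142638008, plus strand) codes for a GBP that carries a lipid anchor and coats vacuoles of Toxoplasma and of bacteria. Its level was 14.4, 14.0 and 12.5 CPM in control libraries 1 to 3, 7.03, 7.43 and 9.92 CPM at 24 h and 4.43, 5.56 and 5.999 CPM at 72 h. Every library at 24 h lay below every control and above every library at 72 h. The log2 change against control was −0.74 ± 0.16 (SE, edgeR adjusted p = 0.00708) at 24 h and −1.35 ± 0.17 (adjusted p = 0.000473) at 72 h, which was the smallest fall of the 8 at 72 h. The change from 24 h to 72 h was −0.61 ± 0.17.

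Gbp3 (ENSMUSG00000028268, chr3:142560026-142573209, plus strand), another GBP recruited to such vacuoles, had the steepest fall of the 3 GBPs. Its level was 28.8, 20.96 and 27.9 CPM in the controls, 9.60, 11.2 and 10.2 CPM at 24 h and 3.46, 3.21 and 3.16 CPM at 72 h. The 3 groups did not overlap, and the mean at 72 h was 3.28 ± 0.161 CPM (SD, n = 3). The log2 change was −1.33 ± 0.13 (edgeR adjusted p = 4.68e-05) at 24 h and −2.98 ± 0.15 (adjusted p = 1.15e-06) at 72 h, a 7.87-fold lower level. From 24 h to 72 h it was −1.65 ± 0.15.

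Gbp7 (ENSMUSG00000040253, chr3:142530342-142550149, plus strand), a GBP linked to the killing of bacteria inside cells, varied most of the 3 GBPs among the controls. Its level was 21.2, 9.99 and 18.3 CPM in the controls, 7.16, 8.35 and 9.13 CPM at 24 h and 4.98, 5.13 and 4.52 CPM at 72 h. Control 2 was close to the libraries at 24 h, but no groups overlapped. The log2 change was −1.001 ± 0.234 (edgeR adjusted p = 0.01) at 24 h and −1.75 ± 0.25 (adjusted p = 0.00105) at 72 h, and −0.75 ± 0.25 between the times. Over 20 other ways of processing, its largest adjusted p was 0.0475 at 24 h and 0.0086 at 72 h. Of the 50-base words in Gbp7 transcripts, 10.5% also occur in Gm43802, a processed pseudogene within the gene on the same strand, and 2.24% occur in Gbp3.

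The regulatory IRGs fell at both times too. Irgm1 (ENSMUSG00000046879, chr11:48861968-48871683, minus strand) codes for the regulator that mice need to resist mycobacteria and that acts on Golgi and lysosome membranes. Its level was 43.2, 34.9 and 40.6 CPM in the controls, 23.6, 27.7 and 24.6 CPM at 24 h and 11.8, 10.6 and 12.7 CPM at 72 h. The lowest control was above the highest library at 24 h, and the lowest of these was above every library at 72 h. The log2 change was −0.64 ± 0.10 (edgeR adjusted p = 0.00106) at 24 h, the smallest in size of the 8, and −1.75 ± 0.11 (adjusted p = 4.1e-06) at 72 h. From 24 h to 72 h it was −1.11 ± 0.11. Only 0.31% of its 50-base words occur on the same strand in another gene, the smallest share among the members.

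Irgm2 (ENSMUSG00000069874, chr11:58199618-58222782, plus strand) and Igtp (ENSMUSG00000078853, chr11:58199556-58207591, plus strand), regulators on Golgi and endoplasmic reticulum membranes, have overlapping annotated spans on the same strand. They share 243 of their 50-base words, which is 6.79% of those of Irgm2 and 11.8% of those of Igtp, so part of their reads can be given to either. The level of Irgm2 was 18.6, 11.1 and 14.2 CPM in the controls, 6.73, 8.59 and 6.15 CPM at 24 h and 2.37, 2.16 and 2.39 CPM at 72 h. That of Igtp was 13.8, 11.4 and 11.8 CPM in the controls, 6.12, 6.21 and 6.48 CPM at 24 h and 2.61, 3.52 and 2.90 CPM at 72 h. For both genes the 3 groups were separate, and control 2 was the lowest control. The log2 change of Irgm2 was −1.03 ± 0.20 (edgeR adjusted p = 0.00326) at 24 h and −2.66 ± 0.22 (adjusted p = 2.81e-05) at 72 h. The log2 change of Igtp was −0.97 ± 0.15 (edgeR adjusted p = 0.000769) at 24 h and −2.03 ± 0.16 (adjusted p = 1.71e-05) at 72 h. Between the times the changes were −1.63 ± 0.22 for Irgm2 and −1.06 ± 0.16 for Igtp, and the difference between the genes was not tested.

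Iigp1 (ENSMUSG00000054072, chr18:60376027-60392634, plus strand), the effector that loads onto parasite vacuoles, was the least abundant member and the least certain. Its counts were 36, 13 and 22 in the controls, 7, 3 and 6 at 24 h and 1, 4 and 1 at 72 h. All treated libraries were below all controls, while the 24 h and 72 h libraries overlapped. The log2 change was −2.15 ± 0.59 (edgeR adjusted p = 0.0223) at 24 h and −3.44 ± 0.68 (adjusted p = 0.0089) at 72 h. Iigp1 passed the filter only through the controls, so a fall was bound to be found and these p-values are no evidence of one. They are given only to show how the calls depend on single libraries. From 24 h to 72 h the log2 change was −1.30 ± 0.77, and it was −2.21 without 72 h library 2, which held 4 of the 6 counts. The calls were lost when certain single libraries were left out. Over all genes, the calls at 24 h fell from 3478 to 2473, 2388 and 2351 without 24 h library 1, 2 or 3. The adjusted p at 24 h became 0.0955 without control 1, 0.0529 without control 3, and 0.0518, 0.0919 and 0.0733 without 24 h library 1, 2 or 3. At 72 h it became 0.0515 without 72 h library 1 and 0.0507 without library 3.

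Gvin1 (ENSMUSG00000045868, chr7:106156556-106215326, minus strand) was the 1 member that was higher at 24 h and lower at 72 h than in the controls. Its level was 107, 55.6 and 88.7 CPM in the controls, 160, 220 and 156 CPM at 24 h and 7.23, 8.65 and 16.8 CPM at 72 h. All 24 h libraries were above all controls, and all 72 h libraries were below all controls. The log2 change against control was 1.10 ± 0.27 (edgeR adjusted p = 0.0124) at 24 h, a 2.14-fold higher level. At 72 h it was −2.95 ± 0.31 (edgeR adjusted p = 0.000163), a 7.7-fold lower level. Gvin1 was chosen for its fall between these times, which favours a high level at 24 h and a low level at 72 h. Its comparisons with the control use those libraries, so their p-values are not independent of the choice. Without 24 h library 2, the highest, the change at 24 h was 0.92 with an adjusted p of 0.0609, so that call was lost. Over all genes the calls at 24 h fell from 3478 to 2388 in that fit. The fall from 24 h to 72 h, on which the genes were chosen, was −4.04 ± 0.32 on the log2 scale. Among genes with a mean of at least 5 CPM whose 24 h and 72 h libraries did not overlap, it was second to that of Gm4070, a predicted gene (log2 change −5.59). Itgb2 came next with −3.25. Of the 8 members 7 were lower at 72 h than at 24 h without overlap, against 23.7% of all genes tested. Nothing is read from that count, since the contrast chose the genes.

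The level of Gvin1 cannot be separated from that of Gm4070, which lies on the same strand of the same chromosome (chr7:105895139-105953967). Their transcripts of 8795 bases in the GENCODE annotation of GRCm38 are 99.97% identical, and 98.3% of the 50-base words of Gvin1 occur in Gm4070. The pseudogene Gm8979 holds 22% of the words of Gvin1, most of them the same ones, and 99.2% occur in at least 1 other gene. The transcripts differ at 3 coding positions, counted from 1 at the 5′ end, which are G1895T, G4994A and C7165T with the base of Gvin1 written before that of Gm4070. The windows of 21 bases around them, with the differing base in capitals, are shown as the places where reads of these transcripts can be told apart.
Gvin1 around G1895T: cagttgtgcaGccttctagaa
Gm4070 around G1895T: cagttgtgcaTccttctagaa
Gvin1 around G4994A: gaaggacggaGgagactggag
Gm4070 around G4994A: gaaggacggaAgagactggag
Gvin1 around C7165T: ggaattcccaCtcaagaaata
Gm4070 around C7165T: ggaattcccaTtcaagaaata

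The deposited counts split these reads unevenly. Gm4070 took 33.7%, 18.7% and 38.6% of the sum of both genes in the controls, 45.5%, 35.1% and 48.5% at 24 h, and 34.3%, 33.6% and 0% at 72 h. In 72 h library 3 all 260 counts went to Gvin1 and 0 to Gm4070. That library had the highest Gvin1 count of its group. Gm4070 alone had counts of 897, 231 and 873 in the controls, 2182, 1957 and 2597 at 24 h and 62, 71 and 0 at 72 h. Its log2 change was 1.71 ± 0.48 (edgeR adjusted p = 0.0252) at 24 h and −3.88 ± 0.67 (adjusted p = 0.00393) at 72 h. The call at 24 h was lost without 24 h library 1, 2 or 3 (adjusted p 0.0716, 0.0608 and 0.0849) and in DESeq2 (0.356). That at 72 h was lost in limma voom (0.134).

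Summing both genes before the fit was an alternative chosen after seeing the data. The sum varied less than Gvin1 between libraries at 24 h and 72 h, and more between controls. The summed counts were 2664, 1238 and 2260 in the controls, 4800, 5569 and 5360 at 24 h and 181, 211 and 260 at 72 h. The 3 groups stayed apart, and the coefficient of variation at 24 h was 7.78% for the sum, against 20.1% for Gvin1 and 10.2% for Gm4070. At 72 h it was 21.5% for the sum, against 47.3% and 87.4%. In the controls it was 39.6%, against 31% for Gvin1, with control 2 the lowest for both genes. The log2 change of the sum was 1.33 ± 0.25 (edgeR adjusted p = 0.00307) at 24 h and −3.20 ± 0.29 (adjusted p = 5.43e-05) at 72 h. As for Gvin1, the values of Gm4070 and of the sum share libraries with the choice. With each library left out in turn, the change at 24 h ranged from 1.03 to 1.55 and its largest adjusted p was 0.0157. From 24 h to 72 h the sum changed by −4.52 ± 0.30. The plot of stacked counts shows the split and the sum side by side.

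**Figure D2:**
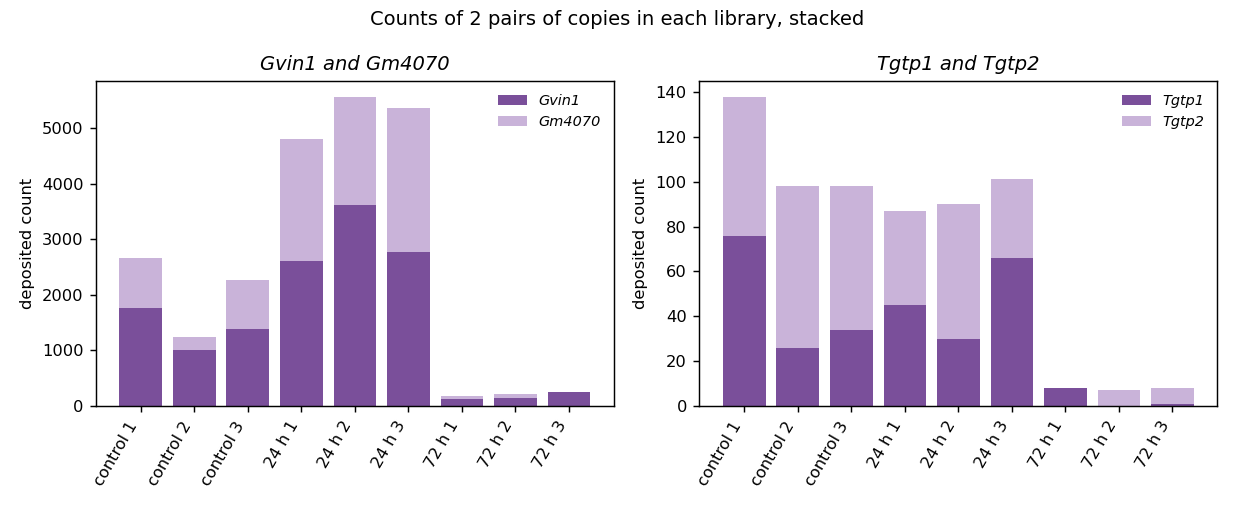
Deposited counts of Gvin1 and Gm4070 (left) and of Tgtp1 and Tgtp2 (right) in each of the 9 libraries, stacked so that the bar height is the sum, on linear axes that start at 0. The share of each copy varies between libraries of a group, whereas the Gvin1 and Gm4070 sums of 4800 to 5569 at 24 h lie above every control and those of 181 to 260 at 72 h below every control.

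Levels of different members were compared per kilobase of exon. In the controls the order of mean levels was Gvin1 (9.28 CPM per kb), Gbp3 (7.93), Irgm1 (6.81), Igtp (6.10), Gbp2 (5.403), Irgm2 (3.96), Gbp7 (2.94) and Iigp1 (0.246). The ranges of the libraries overlapped for every pair of neighbours in this order except the last, Gbp7 and Iigp1. At 24 h Gvin1 stood above all the others with 17.3 to 24.4 CPM per kb, next to 4.05 to 4.77 for Irgm1. Gbp2 (3.23), Gbp3 (3.16) and Igtp (3.10) followed with overlapping ranges. Irgm2 (1.94), Gbp7 (1.46) and Iigp1 (0.0543) came last, and these 3 did not overlap. At 72 h Gbp2 (2.12) and Irgm1 (2.02) were highest, with overlapping ranges, and Gbp3, second in the controls, was at 1.004 CPM per kb. Igtp was at 1.49 and Gvin1 at 1.21. The range of Gvin1, 0.803 to 1.86, overlapped those of Igtp, Gbp2, Irgm1, Gbp3 and Gbp7, so its place in the order is not settled. Gbp7 (0.868), Irgm2 (0.625) and Iigp1 (0.0213) had the lowest means and did not overlap each other. The value of Gvin1 depends on how reads were split with Gm4070. These levels are shown in the plot of CPM per kb.

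**Figure D3:**
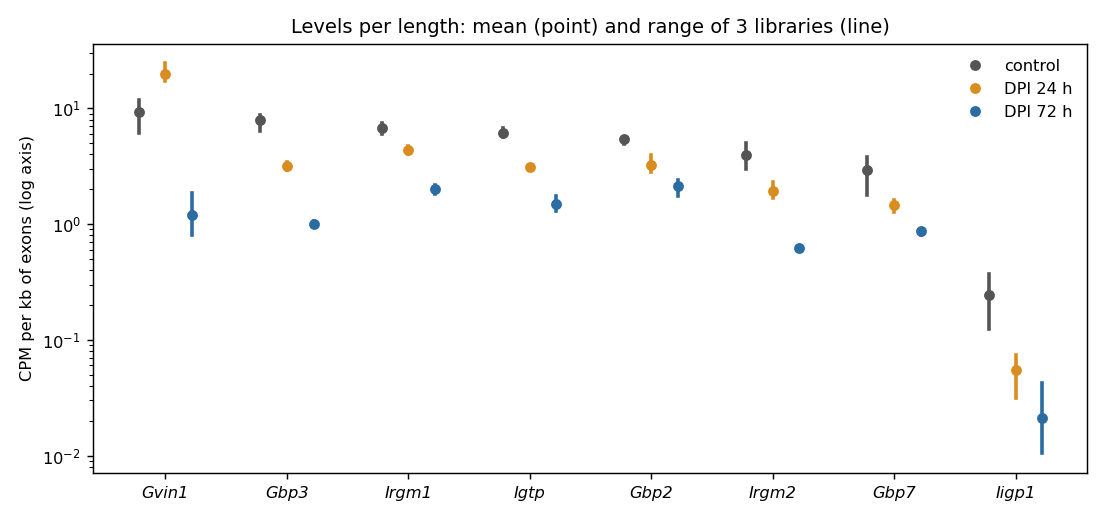
Level of each member in CPM per kb of exon on a log axis, as the mean (point) and the range (line) of the 3 libraries of each group, in the order of the control means. The lines of neighbouring genes overlap in the controls except for Iigp1, and Gvin1 spans from 19.8 CPM per kb at 24 h to 1.21 at 72 h.

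Other genes of the same families were given by lists. Of 9 other GBPs listed, 8 were in the table and only Gbp6 passed the filter on low counts. Gbp6 was at 9.47, 5.52 and 7.29 CPM in the controls, 1.77, 3.41 and 3.21 at 24 h and 1.09, 0.556 and 0.581 at 72 h. The groups did not overlap, and the log2 change was −1.40 ± 0.31 (edgeR adjusted p = 0.00804) at 24 h and −3.30 ± 0.36 (adjusted p = 0.000203) at 72 h. Of 19 other IRGs listed, 13 were in the table and 6 were tested, with a median log2 change of −0.11 at 24 h and −1.67 at 72 h. None of the 6 was called lower at 24 h, when Irgq, an IRG-like gene, was called higher (0.47, edgeR adjusted p = 0.0334). That call was lost under 6 alternatives, among them without 24 h library 2 or 3 and without 72 h library 2 or 3, with an adjusted p of at most 0.141. Irgq changed by 0.39 at 72 h (edgeR adjusted p = 0.124, and 0.018 with genes of low count kept). At 72 h the near-identical T-cell GTPases Tgtp1 (−3.82 ± 0.79, adjusted p = 0.0113) and Tgtp2 (−3.72 ± 0.57, adjusted p = 0.00197) fell. The call of Tgtp1 was lost without 72 h library 3 (0.0573). 9930111J21Rik1, 9930111J21Rik2 and Gm12185 did not pass at either time, with log2 changes at 72 h of −2.55, −0.58 and −0.79. At 72 h 9930111J21Rik1 passed without control 2 (−2.99, adjusted p = 0.0417), in DESeq2 (0.0409) and with genes of low count kept (0.00156), and 9930111J21Rik2 passed without control 2 (−0.84, 0.00804).

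Tgtp1 and Tgtp2 can share reads as well, since 79.4% of the 50-base words of Tgtp1 and 85.8% of those of Tgtp2 occur in the other. Their summed counts were 138, 98 and 98 in the controls, 87, 90 and 101 at 24 h and 8, 7 and 8 at 72 h. The controls and the 24 h libraries overlapped, and the 72 h libraries were far below both. The sum changed by −0.28 ± 0.19 (edgeR adjusted p = 0.335) at 24 h and by −3.78 ± 0.25 (adjusted p = 5.9e-06) at 72 h. Whether their course at 24 h differed from that of the members was not tested. Of 16 other genes of the Gvin family listed, 6 were in the table and 2 were tested. Besides Gm4070, this was the pseudogene Gm8979, with log2 changes of −0.22 (adjusted p = 0.862) and −2.56 (adjusted p = 0.12, and 0.0357 without control 2).

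Of 5 Mx and atlastin GTPases, relatives of the GBPs in the dynamin superfamily, 4 were tested. Mx2, an antiviral GTPase induced by interferon, was at 5.49, 5.79 and 6.59 CPM in the controls, 2.69, 2.38 and 1.52 at 24 h and 0.607, 0.618 and 0.516 at 72 h. Its groups did not overlap, and its log2 change was −1.44 ± 0.25 (edgeR adjusted p = 0.00179) and −3.34 ± 0.29 (adjusted p = 3.6e-05). Atl1, Atl2 and Atl3, atlastins that fuse tubules of the endoplasmic reticulum, changed by −0.62, 0.0073 and −0.013 at 24 h and by −0.25, −0.034 and 0.24 at 72 h. Of these 3 only Atl1 passed the test, at 24 h (adjusted p = 0.0427). That call was lost under 8 alternatives, among them without control 1 or 3, any 24 h library or 72 h library 3, with an adjusted p of at most 0.134. The plot of log2 changes sets the members beside these genes.

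**Figure D4:**
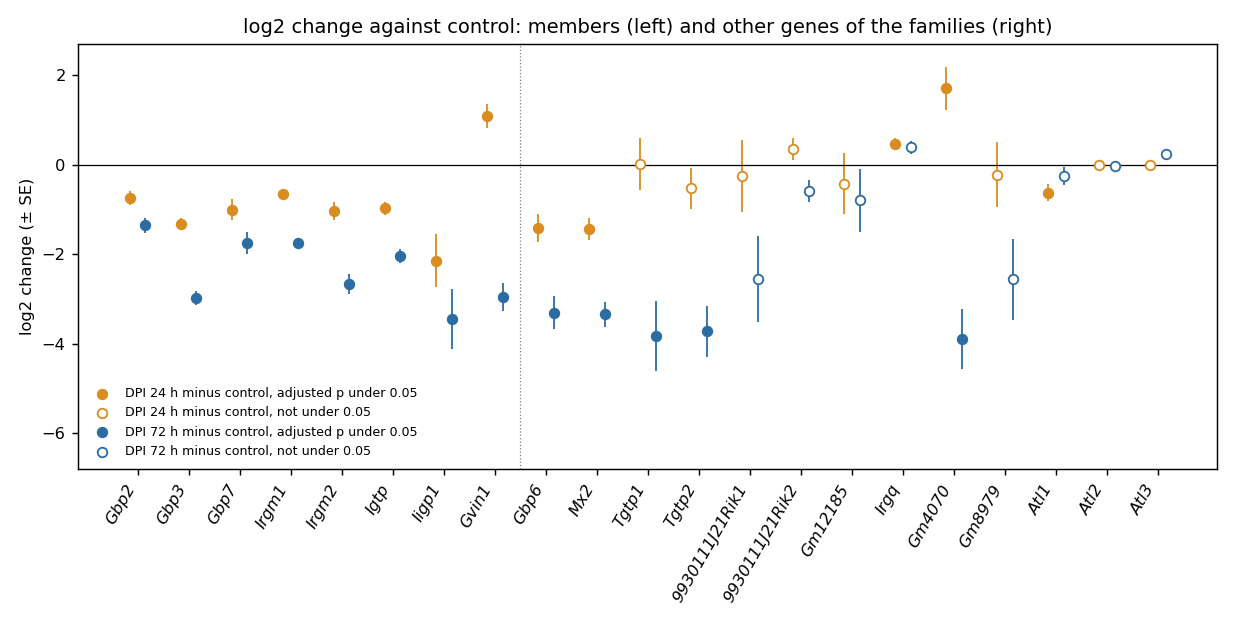
log2 change ± SE against control at 24 h (orange) and 72 h (blue) for the 8 members, left of the dotted line, and for tested genes of related families, with filled points where the edgeR adjusted p was under 0.05. Gvin1 (1.10) and Gm4070 (1.71) lie above 0 at 24 h, and all 8 members lie between −3.44 and −1.35 at 72 h.

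The genes that carry the interferon signal to these promoters were read next. Of 9 listed ligand genes, interferons and the interleukin subunit Il27, none passed the filter on low counts. Of 7 receptor chains and Janus kinases, 1 rose and 1 fell at 24 h and none passed the test at 72 h, with medians of 0.016 and −0.083 on the log2 scale. Over all genes tested, 12.3% were lower and 12.4% higher at 24 h, and 3.83% and 4.73% at 72 h. The 1 of 7 each way at 24 h is near these shares, beside which the counts of the other lists are also to be read. Ifngr1, the ligand-binding chain of the interferon-gamma receptor, rose by 0.54 ± 0.06 (edgeR adjusted p = 6.05e-05) at 24 h. Jak2, a kinase of that receptor, changed by −0.32 ± 0.11 (adjusted p = 0.0478), a call lost under 11 alternatives, among them each library left out except control 2 (adjusted p at most 0.141). Ifnar2, a chain of the type I receptor, and Tyk2, its kinase, changed by −0.20 and 0.23 at 24 h and by −0.17 and −0.094 at 72 h without passing.

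Of 12 transcription factors of the response, 9 were tested, and 4 fell and 1 rose at 24 h, while 5 fell at 72 h. Their median log2 change was −0.32 and −0.51. Irf7, which amplifies the interferon response, was at 50.5, 37.0 and 42.9 CPM in the controls, 10.2, 13.8 and 11.7 at 24 h and 2.07, 2.29 and 2.58 at 72 h. It stepped down without overlap, with log2 changes of −1.87 ± 0.14 (edgeR adjusted p = 5.87e-06) and −4.23 ± 0.17 (adjusted p = 2.08e-07). Irf9, the DNA-binding subunit at the ISRE, changed by −1.16 ± 0.14 (adjusted p = 0.000192) and −2.01 ± 0.15 (adjusted p = 1.42e-05). Stat2, its partner there, changed by −0.48 ± 0.16 (adjusted p = 0.0468) at 24 h and −1.10 ± 0.16 (adjusted p = 0.00142) at 72 h. The 24 h call of Stat2 was lost without control 1 or 3, any 24 h library, or 72 h library 1 or 2 (adjusted p at most 0.153).

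Further calls at 24 h were Irf5, lower by a log2 change of −1.60 (adjusted p = 0.00639), and Stat3, higher by 0.25 (adjusted p = 0.0123), the latter lost without 24 h library 2 (0.0607). At 72 h Irf1 (−0.47, adjusted p = 0.00663) and Nlrc5 (−0.97, adjusted p = 0.00299) fell as well. Irf5, Stat3 and Irf1 were named after their values were seen. Of 6 inhibitors of interferon signalling 1 fell at each time, with medians of 0.011 and 0.097. It was Usp18, which blocks the type I receptor and is itself an interferon target, with log2 changes of −1.71 ± 0.22 (edgeR adjusted p = 0.000277) and −4.27 ± 0.27 (adjusted p = 4.78e-06). Socs1, which inhibits Janus kinases, changed by 0.57 (adjusted p = 0.142) and 0.26 (adjusted p = 0.637), and Socs3, Ptpn2, Ptpn11 and Pias1 did not pass either. Ptpn2 passed at 24 h without control 1 (−0.35, adjusted p = 0.0395) and with genes of low count kept (0.0344). The plot of signalling genes gives each of them.

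**Figure D5:**
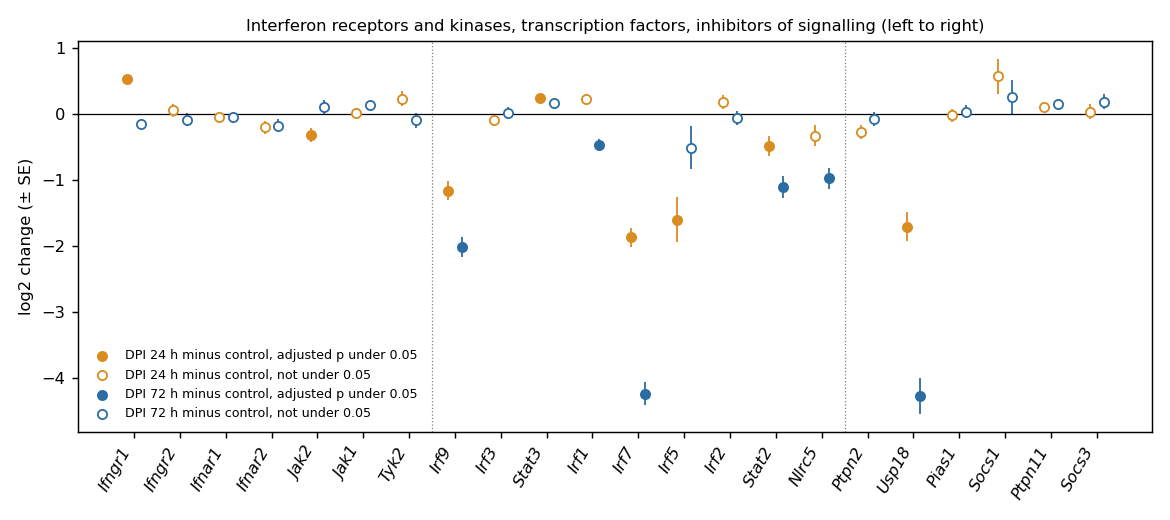
log2 change ± SE against control at 24 h (orange) and 72 h (blue) for the tested receptor chains and kinases, transcription factors and inhibitors of interferon signalling, separated by dotted lines, with filled points where the edgeR adjusted p was under 0.05. Irf7 (−4.23) and Usp18 (−4.27) are lowest at 72 h, while the receptor chains and kinases stay between −0.32 and 0.54.

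Lists of genes that act on the GTPases or with them were read in the same way, beside the shares over all genes given above. Of 8 genes for the lipid modification that anchors some GBPs and IRGs, 2 rose and none fell at 24 h and 1 rose at 72 h, with medians of 0.073 and 0.032. They were Zmpste24, a protease that trims prenylated proteins (0.40, edgeR adjusted p = 0.000919 at 24 h), and Nmt2, which attaches myristate (0.41, adjusted p = 0.00143 at 24 h and 0.39, adjusted p = 0.00441 at 72 h). Fntb, a farnesyltransferase subunit, and Icmt, which methylates prenylated proteins, changed by −0.081 and −0.15 at 24 h and by −0.15 and 0.040 at 72 h without passing. Of 10 genes of the ubiquitin-like conjugation that guides GBPs and IRGs to vacuoles, 1 rose at 24 h and 1 fell at 72 h, with medians of 0.049 and −0.19. Map1lc3b (0.39, adjusted p = 0.00289 at 24 h) and Gabarap (−0.53, adjusted p = 0.00298 at 72 h), both coding for proteins that are joined to membrane lipids in autophagy, were those genes. Map1lc3a and Atg7, of the same machinery, changed by −0.24 and −0.13 at 24 h and by −0.34 and −0.23 at 72 h without passing.

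Of 11 genes that mark broken vacuoles or act on their contents, 4 fell and 1 rose at 24 h and 5 fell at 72 h, with medians of −0.54 and −0.79. Lgals9, a lectin that binds sugars exposed on broken vacuoles, changed by −1.04 ± 0.12 (edgeR adjusted p = 0.000137) and −1.70 ± 0.13 (adjusted p = 1.42e-05). Sqstm1, an autophagy receptor for ubiquitin, changed by −0.49 (adjusted p = 0.000425) and −0.79 (adjusted p = 3.24e-05). Lgals8, another lectin of this kind, changed by −0.70 (adjusted p = 9.03e-05) at 24 h and −0.26 (adjusted p = 0.0565, and 0.00653 without control 2) at 72 h. At 72 h it also passed with upper quartile scaling (0.0343), library size only (0.0315), genes of low count kept (0.0301) and in DESeq2 (0.0333). Casp4, the caspase that senses bacterial lipopolysaccharide, changed by −0.64 (adjusted p = 0.0222) and −1.22 (adjusted p = 0.00165), and its 24 h call was lost without control 1 or 24 h library 1 or 3 and when genes of low count were kept (adjusted p at most 0.0835).

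The remaining calls of that list were named after their values were seen. Lgals3 changed by 0.29 at 24 h (edgeR adjusted p = 0.0385), a call lost under 10 alternatives, among them without control 1 or 3, any 24 h library, or 72 h library 1 or 3 (adjusted p at most 0.134). Trim21, an antibody receptor and ubiquitin ligase, changed by −1.15 at 72 h (adjusted p = 0.00572). Rnf213, a ubiquitin ligase that coats bacteria, changed by −1.24 at 72 h (adjusted p = 0.0207), and its call was lost without control 1 or 3 or any 72 h library (adjusted p at most 0.0823).

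Leaving out control 2, which was done for all lists after seeing the data, added calls at 24 h. Over all genes the calls at 24 h rose from 3478 to 4419 in that fit, so the additions are not read as a trait of the lists. Lower were Nlrc5 (log2 change −0.51, edgeR adjusted p = 0.00121), Rnf213 (−0.96, 5.84e-06), Trim21 (−0.64, 0.0383), Atl3 (−0.13, 0.031), Icmt (−0.21, 0.0488) and Gm8995 of the Gvin list (−3.44, 0.0193). Gm8995 did not pass the filter with all 9 libraries. It entered this fit only through the remaining controls, so that its change was bound to be a fall. Higher were Irf1 (0.31, adjusted p = 0.00601), Ifngr2 (0.19, 0.0395), Fnta (0.23, 0.00648), Gabarap (0.32, 0.000148) and Gabarapl2 (0.25, 0.0126). Of the listed genes other than cell type markers, none lost its call.

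The members followed a shared course over the 9 libraries to different degrees. Pearson's r between each member's log2 CPM and the mean of all 8 members, in which it is itself included, was between 0.927 and 0.99 for the 3 GBPs, Irgm1, Irgm2 and Igtp. It was 0.892 for Iigp1 and 0.81 for Gvin1. These coefficients are descriptions, since the points share 3 groups and the same libraries. Among 9926 other genes with a mean of at least 5 CPM, those most like the mean of the members were Parp9 (r = 0.993), Ddx60 (0.99), Ifit1 (0.989), Usp18 (0.988) and Lgals3bp (0.987). These genes were picked by likeness over the same libraries, so their direction against control followed from the choice. Their changes are therefore given without a test. Against control, Ddx60 changed by −1.33 at 24 h and −2.98 at 72 h on the log2 scale. Ifit1 changed by −0.57 and −1.95, and Lgals3bp by −1.18 and −2.73.

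The genes most like Gvin1 were a different 5, namely Ogn (r = 0.985), Nat2 (0.982), Tpp1 (0.982), Klhl24 (0.98) and Pif1 (0.979), and their changes were smaller. They were picked in the same way, so no test is given for them either. Tpp1, a lysosomal peptidase, changed by 0.30 at 24 h and −0.58 at 72 h against control. Ogn, a small proteoglycan of the matrix, changed by 0.45 and −1.04. Gvin1 itself changed by 1.10 and −2.95, so likeness here means the order and spacing of the libraries and not the size of the change.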

How the data were processed

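The authors deposited raw counts per gene as whole numbers, and a second table named as normalized whose 159498 values all equalled those counts, so only the counts were used. The submitters' processing notes list the tools Trim Galore and cutadapt, STAR and RSEM, edgeR and limma, and the build GRCm38. The versions, roles, annotation release, strand setting and any rounding were not given in the sources used here, so genes that overlap or have near-identical copies are uncertain. The members and gene lists were chosen with earlier results of these data known. Columns were assigned to samples by name.

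Of 53465 gene IDs, 53360 had a symbol in the GENCODE M21 annotation of GRCm38, which also gave coordinates, exonic lengths and transcripts. Genes were filtered with filterByExpr (14088 kept), scaled by TMM (factors 0.984 to 1.02) and fitted over all 9 libraries with edgeR's glmQLFit and two-sided glmQLFTest (edgeR 4.0.16 in R 4.3.3), with Benjamini-Hochberg adjustment. A standard error is the log2 change over the square root of its quasi-likelihood F. The fit was tested on simulated data. CPM values are TMM-normalized. With 3 libraries a group, an exact permutation test of a single value cannot give a p under 0.1. Libraries of 1 group differed from each other by more than counting noise (chi-square per degree of freedom 3.62 to 31.3), and all 9 were kept as separate libraries.

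All 8 members were named. From each list all tested genes were named where at most 6 passed the filter, and otherwise the 4 with the smallest p. The 5 genes with the highest r to the members' mean and the 5 to Gvin1 were added, leaving out predicted symbols. Sharing of reads was measured as 50-base words on the same strand of GENCODE transcripts. Promoters were from RefSeq, and protein features were not analysed here. As alternatives, the scaling, the filter and the tool were changed (DESeq2 1.42.0, limma 3.58.1 with voom), only the compared groups were fitted, a replicate block was added, copies were summed, and each library was left out. An item of the transcription factor list is not reported here. Marker and pathway lists are described by counts and medians, with no test of the list.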

Additional observations from a re-analysis of the deposited data

How the results depend on the processing

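Calls of 6 members (Gbp2, Gbp3, Gbp7, Irgm1, Irgm2 and Igtp) held at both times under all 20 alternatives. Those of Iigp1 and the 24 h call of Gvin1 did not, as given with each gene, and Iigp1 was not tested with a minimum of 1 CPM in 3 libraries. The number of members called higher at 24 h ranged from 0 (without 24 h library 2) to 1 with single libraries left out. Over all genes, 1206 were called at 72 h, against 774 with only the 2 groups compared, 1965 without control 2, and 782, 736 and 801 without 72 h library 1, 2 or 3. With a replicate block, 7 members were lower and 1 higher at 24 h and 8 lower at 72 h, and 3000 and 911 genes were called in all, against 3478 and 1206. Among the genes named from the lists, the block ended the 24 h calls of Jak2 and Irgq. The numbers did not pair the libraries. Correlations of same-numbered deviations lay between −0.0925 and 0.00265, and no library correlated best with its own number (0 of 18 comparisons). Counts of 1 to 7 limit Iigp1 after treatment, and reads shared with Gm4070 limit the level of Gvin1. Causes of these shifts were not tested.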

Other observations

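Some relatives of the members were under the filter on low counts and are given as counts only, chosen after their values were seen. Gbp5, a GBP that acts in inflammasome assembly, had counts of 10, 5 and 7 in the controls, 8, 6 and 5 at 24 h and 2, 1 and 2 at 72 h. Gbp9 had 8, 1 and 18 in the controls, 7, 11 and 3 at 24 h and 0, 5 and 0 at 72 h. Gbp4 had 3 counts in control 1 and 0 in the other libraries, and Gbp2b had at most 2 in any library. Mx1, an antiviral GTPase like Mx2, had 8, 1 and 8 counts in the controls, 5, 6 and 1 at 24 h and 7, 2 and 3 at 72 h. These counts are too few for a comparison.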
